A study of Canis lupus familiaris with 8 samples.

Results

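Tissue that had filled a surgical defect in dog jaw bone, together with the bone beside it, was compared 6 weeks after surgery with sound jaw bone. The comparison takes the 2 arrays titled as the defect at 6 weeks (D6) against the 2 control arrays (C), which is 4 of the 8 arrays in the study, and covers 15947 genes. Group C was sound alveolar bone from around upper premolar roots. Group D6 was taken from around the root of an upper premolar beside the defect, with no tooth movement. The other groups were the same kind of defect tissue at 2 weeks (D2) and at 6 weeks with a tooth drawn forward (DT6), with 2 arrays each, and they enter only to show where D6 stands apart. All animals were dogs, and the sources used here give no breed, age or sex and do not tie an array to an animal. C is therefore a control for site and species only, and p-values measure the spread between arrays, which may be technical. The week is read from the digit in the sample titles.

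Alveolar bone holds the tooth roots. When a hole is made in it, macrophages clear the clot, a vascular fibrous tissue grows in, osteoblasts lay down woven bone, and osteoclasts and new osteoblasts then remodel that bone into its mature form with osteocytes and marrow. Interferons are secreted proteins that cells release when they sense foreign or misplaced nucleic acid. Through transcription factors that include STAT2 and IRF9 they switch on a shared set of antiviral, antigen-presenting and chemokine genes. The roles given below come mostly from work in human and mouse.

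All values are on the log2 scale of the deposited table, taken as base 2. A difference is D6 minus C on that scale ± limma's standard error for 2 arrays against 2. "Rose" and "fell" are kept for genes whose p, adjusted over all 15947 genes, lay under 0.05. The level of one probe set says nothing about the level of another, so levels are compared only between arrays. In tissue such as this, more cells of a type and more RNA per cell cannot be told apart.

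Both D6 arrays carried transcripts of osteoblasts and bone matrix. COL1A1, the main collagen of bone, stood at 13.07 and 13.26 in C and at 13.56 and 13.66 in D6. The mean level of the osteoblast and mineralising matrix list was 9.59 and 9.78 in the C arrays and 9.81 and 10.01 in the D6 arrays. Osteocyte markers were less even. The mean of the osteocyte list was 8.27 and 8.33 in the C arrays and 7.67 and 8.08 in the D6 arrays. MEPE and SOST were lower in both D6 arrays, while DMP1 read 6.82 in D6 array 1 and 11.84 in D6 array 2. D6 array 1 stood apart from D6 array 2 in transcripts of stratified oral epithelium. The mean of that list of 32 genes stood at 8.32 in the former and 5.32 in the latter, and the C arrays gave 5.62 and 5.41. D2 array 2 also held them, at 7.04. Keratin KRT5 read 11.56 in D6 array 1 and 6.58 in D6 array 2, and the desmosomal cadherin DSG1 read 9.87 and 4.23. Transcripts of airway lining, which were high in both D2 and both DT6 arrays (list means 7.87 to 8.32), were near the C level in D6, at 5.53 and 5.22 against 5.20 and 5.28 in C. Skeletal muscle transcripts were near the C level in every array, at list means of 4.82 to 5.17. Across genes, the D6 arrays correlated at 0.975 with each other and the C arrays at 0.983. D6 array 2 was about as close to C array 2, at 0.974, and gave 0.968 with C array 1. D6 array 1 gave 0.954 and 0.961 with the C arrays and 0.971 with D2 array 2.

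**Figure D1:**
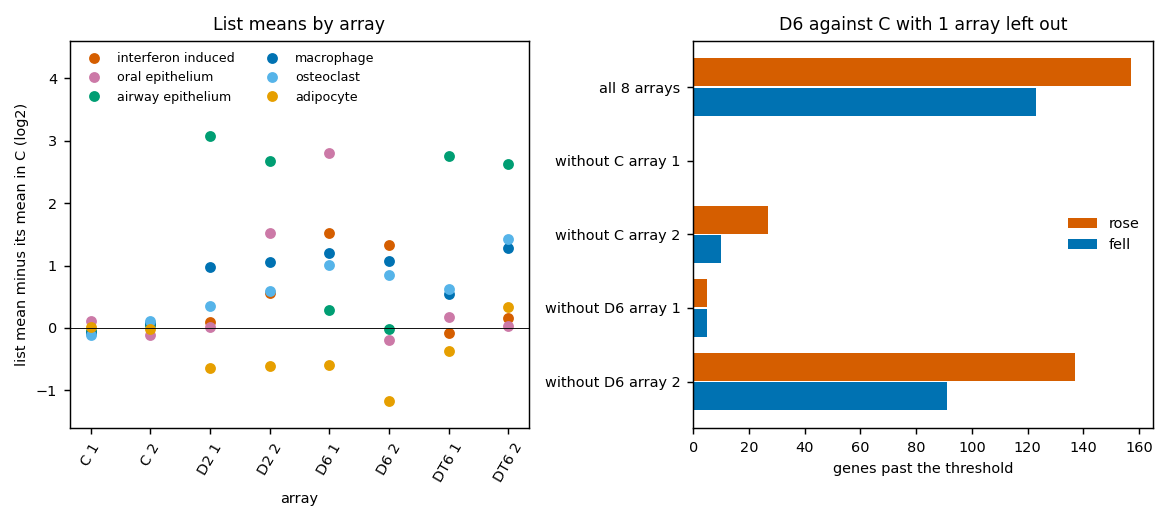
Left, the mean log2 level of 6 gene lists in each of the 8 arrays, less the mean of the 2 C arrays (points are arrays). Oral epithelium transcripts stand out in D6 array 1 and D2 array 2, airway transcripts in the D2 and DT6 arrays, and interferon-induced transcripts in both D6 arrays. Right, the number of genes that rose and fell in D6 against C with all 8 arrays and with 1 array of C or D6 left out, from 157 and 123 with all arrays to 0 and 0 without C array 1.

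Against sound bone, 157 genes rose in D6, which is 0.985% of all genes tested, and 123 fell, which is 0.771%. The rises ran from 0.63 to 3.29 with a median of 1.16, and the falls from −3.85 to −0.67 with a median of −1.16. The groups did not overlap, with both D6 arrays above both C arrays, for 4118 genes (25.8%), and both D6 arrays lay below both C arrays for 3627 genes (22.7%). Those shares are the background for every count of the same kind below. The median difference of all genes was 0.01. The number of genes past the threshold depended on single arrays. It was 0 without C array 1 (1986 genes at an unadjusted p under 0.05), 37 without C array 2, 10 without D6 array 1 and 228 without D6 array 2. It was 49 with D6 array 1 and D2 array 2 both left out. Only 5 of the 280 genes passed in 3 of these 4 fits, and they were GPNMB, RTP4, OAS2, CNTNAP5 and the locus LOC478984. Another 17 passed in 2, 96 in 1 and 162 in none. The spread was estimated from all 8 arrays, and leaving out DT6 array 1 or DT6 array 2 raised the count to 683 or 675, while leaving out either D2 array lowered it to 127.

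**Figure D2:**
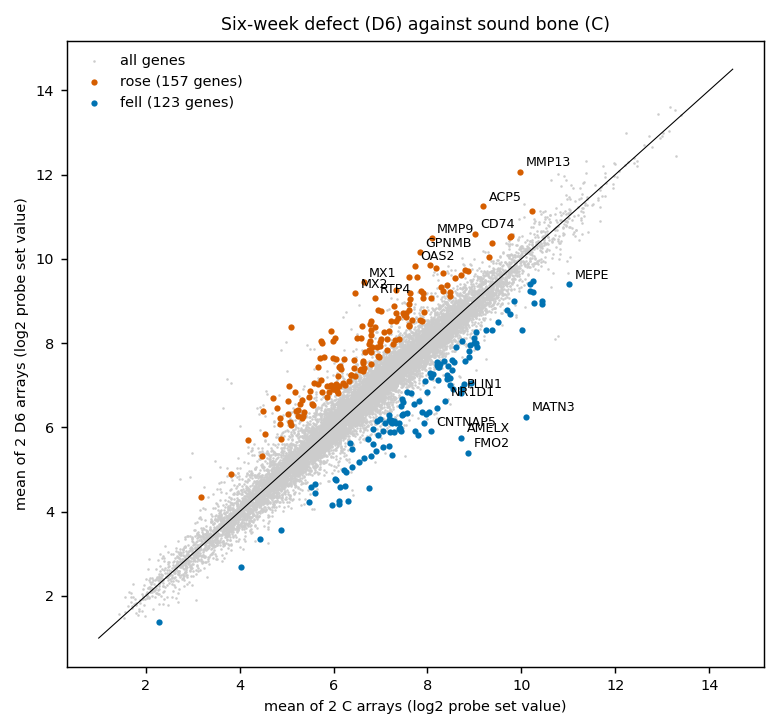
Mean log2 value of the 2 D6 arrays against the mean of the 2 C arrays, 1 point per gene for 15947 genes, with the line of equality. The 157 genes that rose and 123 that fell are coloured, and MX1, MX2, MMP9 and GPNMB lie above the line and MATN3, FMO2 and AMELX below it.

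Most genes on the list of those that interferon switches on rose. The list and its members were chosen with earlier results of these data known. Of 31 measured members of the interferon-induced list, 22 rose and 0 fell, against 0.985% of all genes, and 29 of 31 had groups that did not overlap. The median of the list was 1.41, against 0.01 for all genes, and its members ran from 0.04 for ISG20 to 2.80 for MX1. The mean of the list was 7.83 and 7.64 in the D6 arrays and 6.24 and 6.38 in the C arrays. Oral epithelium transcripts were high in D6 array 1 and at the C level in D6 array 2, and their part in the difference was not tested. Without C array 1 none of the 31 passed, and 5 passed without C array 2, 2 without D6 array 1 and 17 without D6 array 2. With D6 array 1 and D2 array 2, the arrays with oral epithelium transcripts, both left out, 10 passed. The list's median stayed between 1.37 and 1.62 in the fits without 1 array.

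MX1, a dynamin-like GTPase that blocks the replication of RNA viruses, read 6.62 and 6.67 in C and 9.56 and 9.34 in D6. It rose by 2.80 ± 0.30 (adjusted p = 0.0106), or 6.97-fold. Its neighbour in function MX2 read 6.31 and 6.62 in C and 9.37 and 9.01 in D6, a rise of 2.72 ± 0.27 (adjusted p = 0.00899). Both genes sat far above the C arrays in both D6 arrays. The oligoadenylate synthetases make the messenger that activates the antiviral nuclease RNase L. Of these, OAS1 read 5.73 in both C arrays and 8.21 and 7.89 in D6, a rise of 2.32 ± 0.28 (adjusted p = 0.0112). OAS2 read 7.69 and 7.77 in C and 9.89 and 9.79 in D6, a rise of 2.11 ± 0.18 (adjusted p = 0.00465), and it was among the 5 genes that passed in 3 of the 4 fits with an array left out. The gap between the groups in OAS2 was many times the gap within either.

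Other rises among the antiviral effectors were those of TRIM22, a ubiquitin ligase, by 2.24 ± 0.35 (adjusted p = 0.0212), and of USP18, the protease that strips ISG15 from proteins and dampens interferon receptor signalling, by 2.08 ± 0.26 (adjusted p = 0.0112). USP18 read 5.72 and 6.36 in C and 8.03 and 8.20 in D6. ISG15 itself, the ubiquitin-like modifier, was chosen for mention after its values were seen. It read 3.0 and 2.91 in C and 5.03 and 4.63 in D6, and its difference of 1.88 ± 0.39 missed the threshold (adjusted p = 0.0518). Among genes outside the list, RTP4, an interferon-induced receptor chaperone, read 6.80 and 6.96 in C and 9.17 and 8.97 in D6, a rise of 2.19 ± 0.19 (adjusted p = 0.00465). DDX60, a helicase of the antiviral response, rose by 2.33 ± 0.36 (adjusted p = 0.0209). LOC606863, for which the RefSeq gene table gives the synonym IRGM, an immunity-related GTPase family, read 5.91 and 6.05 in C and 8.26 and 7.83 in D6 and rose by 2.07 ± 0.24. The largest rise of any gene was in LOC488947, which the tables used here do not name. It read 4.83 and 5.36 in C and 8.62 and 8.15 in D6, a rise of 3.29 ± 0.35 (adjusted p = 0.0106).

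**Figure D3:**
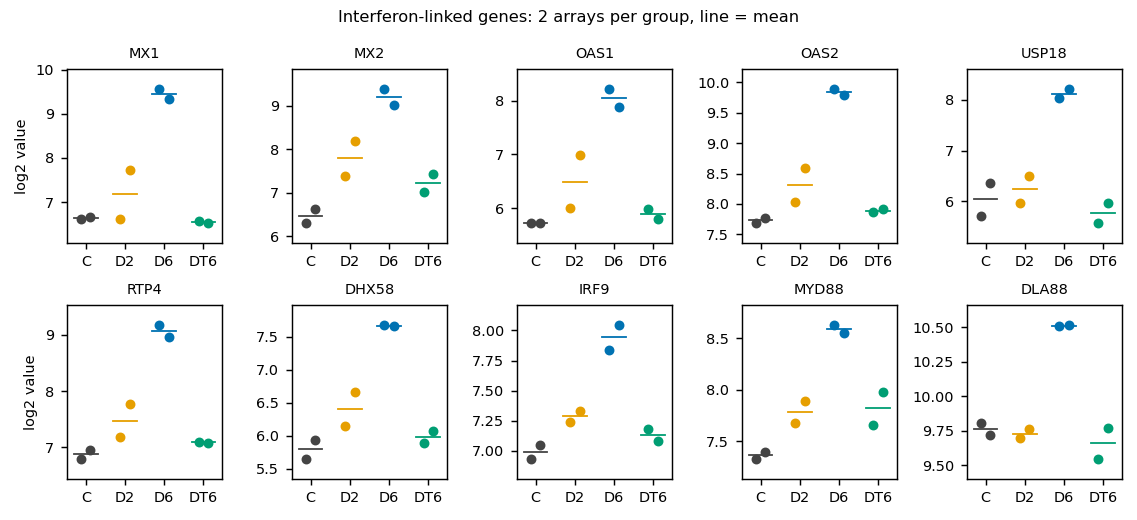
Log2 values of 10 interferon-linked genes in each array of C, D2, D6 and DT6 (points are arrays, lines are group means). In each panel both D6 points lie above every point of the other groups, for example MX1 at 9.56 and 9.34 in D6 against at most 7.73 elsewhere.

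None of the measured interferon genes passed the threshold. IFNB1, a type I interferon named here after its values were seen, read 2.68 and 2.64 in C and 2.62 and 2.95 in D6, a difference of 0.13 ± 0.18 (adjusted p = 0.788). IFNG, the type II interferon of lymphocytes, read 3.40 and 3.53 in C and 3.32 and 3.55 in D6 (difference −0.02 ± 0.17, adjusted p = 0.968). Both probe sets lay near the low end of the arrays, and their distance from background is not known. In the interferon signalling list of ligands, receptors, kinases and transcription factors, 2 of 23 members rose and 0 fell, with a median of 0.14. The 2 were parts of one complex. STAT2 read 7.13 and 7.21 in C and 8.32 and 8.24 in D6, a rise of 1.11 ± 0.15 (adjusted p = 0.0162), and its DNA-binding partner IRF9 read 6.94 and 7.05 in C and 7.84 and 8.04 in D6, a rise of 0.95 ± 0.14 (adjusted p = 0.0188). The receptor chain IFNAR1 differed by 0.03 ± 0.23, and IRF7, a factor that amplifies interferon production, by 0.29 ± 0.20 (adjusted p = 0.532). With 1 array of C or D6 left out, 1 member passed without D6 array 2 and 0 in each of the other 3 fits.

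Sensors of foreign nucleic acid were higher as a group. Of 16 measured, 7 rose and 0 fell, and 11 had groups that did not overlap, with a median of 0.97. The cytoplasmic RNA sensors rose together. DHX58 read 5.65 and 5.94 in C and 7.67 and 7.66 in D6, a rise of 1.87 ± 0.20 (adjusted p = 0.0106). DDX58, which detects viral RNA ends, rose by 1.41 ± 0.22 (adjusted p = 0.0209), and IFIH1, which detects long double-stranded RNA, by 1.16 ± 0.21 (adjusted p = 0.0315). EIF2AK2, the RNA-activated kinase that stops translation, rose by 1.29 ± 0.26 (adjusted p = 0.0492), as did the DNA sensor CGAS by 0.91 ± 0.17 (adjusted p = 0.0395). MYD88, the adaptor of most toll-like receptors, read 7.33 and 7.40 in C and 8.63 and 8.56 in D6, a rise of 1.23 ± 0.15 (adjusted p = 0.0112). Of the 7, 4 also count in the interferon-induced list. The downstream adaptor MAVS and kinase TBK1 gave differences of 0.02 and −0.21. In the fits without 1 array of C or D6, 0 to 4 of the 16 passed, with 0 without C array 1 and 0 without D6 array 1.

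The interferon-linked genes were also higher in D6 than in the other defect groups. Over all genes, 34 were higher in D6 than in D2 (0.213%) and 234 lower (1.47%), and 33 were higher in D6 than in DT6 (0.207%) and 210 lower (1.32%). These comparisons share the D6 arrays with D6 against C. Of the 31 interferon-induced genes, 17 were higher in D6 than in D2 and 19 higher than in DT6, with medians of 1.06 and 1.32, and 0 were lower in either. MX1 read 6.62 and 7.73 in D2 and 6.56 and 6.53 in DT6. It was higher in D6 than in D2 by 2.27 ± 0.30 (adjusted p = 0.00486) and than in DT6 by 2.90 ± 0.30 (adjusted p = 0.00169). For OAS2, at 8.03 and 8.60 in D2 and 7.87 and 7.91 in DT6, the differences were 1.53 ± 0.18 (adjusted p = 0.00289) and 1.95 ± 0.18 (adjusted p = 0.000901). D2 array 2 lay between D2 array 1 and the D6 arrays in both genes. Leaving out D2 array 1 reduced the 17 to 3, and leaving out D2 array 2 or either D6 array gave 7 to 13. Against DT6 the count was 12 to 15 with any array of D6 or DT6 left out. Of the genes lower in D6, 18 and 17 belonged to the 27 members of the airway list, whose transcripts filled the D2 and DT6 arrays. The part of that tissue in the interferon differences was not tested. The same list did not separate D6 from C, with 0 members past the threshold and a median of 0.05.

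Genes that present antigen were higher in D6. In the class I list, whose products show peptides from inside the cell to cytotoxic T cells, 3 of 15 measured members rose and 0 fell, and 14 of 15 had both D6 arrays above both C arrays, with a median of 0.68. The dog class I heavy chain DLA88 read 9.80 and 9.72 in C and 10.51 and 10.52 in D6, a rise of 0.75 ± 0.13 (adjusted p = 0.0319). DLA-79, a further class I chain, rose by 1.47 ± 0.21 (adjusted p = 0.0183), and TAPBP, which loads peptide onto class I, by 1.16 ± 0.17 (adjusted p = 0.0207). Class I chains are close in sequence, and how far their probes tell them apart is not known here. DLA88 was also higher in D6 than in D2 by 0.78 ± 0.13 (adjusted p = 0.0204) and than in DT6 by 0.85 ± 0.13 (adjusted p = 0.0142).

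The class II list covers the peptide display of macrophages, dendritic cells and B cells. Of its 11 measured members 5 rose and 0 fell, with a median of 1.23, and 9 did not overlap. The median difference from C was 1.24 in D2 and 0.81 in DT6. Between D6 and D2, and between D6 and DT6, 0 members differed past the threshold. CD74, the chaperone of class II chains, read 8.91 and 9.12 in C and 10.62 and 10.58 in D6, a rise of 1.59 ± 0.20 (adjusted p = 0.0121). DLA-DQA1, a class II chain, rose by 1.78 ± 0.35 (adjusted p = 0.0466). The peptide editors DLA-DMB and DLA-DMA rose by 1.27 ± 0.20 and 1.03 ± 0.18, and the co-stimulator CD86 by 1.23 ± 0.24 (adjusted p = 0.0434). CIITA, the master regulator of class II transcription, gave a difference of 0.03. With 1 array left out, 0 of 15 class I genes passed in any of the 4 fits, and 2 of 11 class II genes passed without D6 array 2 and 0 in the others.

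Macrophage transcripts were higher in D6. Of 21 measured genes, 10 rose and 0 fell, 20 had groups that did not overlap, and the median was 1.18. GPNMB, a membrane glycoprotein of lipid-laden macrophages and osteoclasts, read 7.65 and 8.04 in C and 10.27 and 10.04 in D6, a rise of 2.31 ± 0.18 (adjusted p = 0.00465), or 4.96-fold. It passed in 3 of the 4 fits with an array left out. GPNMB was also high in the other defect groups, at 10.65 and 10.73 in D2 and 9.41 and 9.72 in DT6. CD68, a lysosomal marker of macrophages, read 8.14 and 8.22 in C and 9.82 and 9.74 in D6, a rise of 1.60 ± 0.24 (adjusted p = 0.0209). The transcription factor SPI1, which sets the myeloid lineage, rose by 1.58 ± 0.21 (adjusted p = 0.0154). FCER1G, the signalling chain of Fc receptors, rose by 1.62 ± 0.25, and the complement receptor VSIG4 of resident macrophages by 1.43 ± 0.26 (adjusted p = 0.0331). The list's mean was 7.23 and 7.40 in the C arrays and 8.52 and 8.40 in the D6 arrays. Its level was similar in D2, at 8.30 and 8.37, and was 7.86 and 8.60 in DT6.

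Of 17 genes of Fc receptor signalling and the phagocyte oxidase, 4 rose, 0 fell and 15 did not overlap, with a median of 0.98. TYROBP, an adaptor that macrophages and osteoclasts share, read 6.65 and 7.12 in C and 8.38 and 8.41 in D6 and rose by 1.51 ± 0.29 (adjusted p = 0.0426). The kinase LYN rose by 1.18 ± 0.18 (adjusted p = 0.0209) and the high-affinity IgG receptor FCGR1A by 1.04 ± 0.18 (adjusted p = 0.0275). TASL, which in human cells links nucleic acid sensing toll-like receptors to IRF5, was among the largest rises at 1.98 ± 0.35 (adjusted p = 0.0308). The lysosome list had 0 of 24 members past the threshold, with a median of 0.35 and 17 higher without overlap. The protease CTSD differed by 1.25 ± 0.26 (adjusted p = 0.0518). Leaving out 1 array of C or D6 left 0 to 4 of the 21 macrophage genes past the threshold, with 0 without C array 1 and 4 without D6 array 2, and 0 of the 17 Fc receptor and oxidase genes in each fit.

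Osteoclasts, the cells that dissolve bone, were represented by 20 measured genes, of which 4 rose and 0 fell and 17 did not overlap. The median was 0.80, and all 20 differences were above 0. MMP9, a gelatinase that osteoclasts make in quantity, read 7.68 and 8.50 in C and 10.63 and 10.35 in D6, a rise of 2.40 ± 0.36 (adjusted p = 0.0208), or 5.29-fold. ACP5, the tartrate-resistant acid phosphatase used to stain osteoclasts, read 8.89 and 9.48 in C and 11.50 and 11.01 in D6, a rise of 2.07 ± 0.33 (adjusted p = 0.0227). TCIRG1, a subunit of the proton pump that acidifies the resorption pit, rose by 1.09 ± 0.17 (adjusted p = 0.0209). CTSK, the protease that digests bone collagen, read 11.30 and 11.47 in C and 12.44 and 12.19 in D6, but its difference of 0.93 ± 0.26 did not pass (adjusted p = 0.109). CALCR, the calcitonin receptor of mature osteoclasts, differed by 0.95 ± 0.33 (adjusted p = 0.196). Without C array 1, C array 2 or D6 array 1 none of the 20 passed, and 2 passed without D6 array 2, while the median stayed between 0.71 and 0.91.

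MMP13, the collagenase of osteoblast-lineage cells and hypertrophic cartilage, read 9.95 and 9.99 in C and 12.29 and 11.85 in D6, a rise of 2.10 ± 0.26 (adjusted p = 0.0112). In the protease list, 2 of 35 members rose and 0 fell, and these were MMP9 and MMP13. For MMP9, ACP5 and MMP13 no difference from DT6 passed the threshold. MMP9 differed between D6 and DT6 by −0.08 ± 0.36, ACP5 by −0.06 ± 0.33 and MMP13 by 0.03 ± 0.26. RANKL and CSF1 are the signals that make osteoclasts. Of 10 genes of their axis, 1 rose, the CSF1 receptor CSF1R of macrophages and osteoclast precursors, from 7.86 and 7.87 in C to 9.27 and 9.20 in D6 (1.37 ± 0.27, adjusted p = 0.0436). TNFSF11, which encodes RANKL, read 7.21 and 7.31 in C and 7.57 and 7.36 in D6, a difference of 0.20 ± 0.37 (adjusted p = 0.855). Its decoy TNFRSF11B, osteoprotegerin, read 7.19 and 6.99 in C and 6.01 and 6.80 in D6, a difference of −0.68 ± 0.24 (adjusted p = 0.192).

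Few lymphocyte genes passed the threshold. Of 32 T and NK cell genes, 2 rose and 0 fell, with a median of 0.19. CD2, an adhesion receptor of T and NK cells, read 6.82 and 6.39 in C and 8.48 and 8.33 in D6 and rose by 1.80 ± 0.28 (adjusted p = 0.0209). CD4, the co-receptor of helper T cells that human macrophages also carry, rose by 1.27 ± 0.21 (adjusted p = 0.0253). Of 20 B and plasma cell genes 1 rose, the syndecan SDC1 by 1.00 ± 0.16 (adjusted p = 0.0212), which plasma cells and stratified epithelium share. Its D6 values were 8.03 in array 1, where oral epithelium transcripts were high, and 7.79 in array 2. The granulocyte list had 0 of 13 past the threshold. Its genes S100A8 and S100A12, which oral epithelium also makes, read 10.13 and 10.41 in the epithelium-rich D6 array and 4.17 and 5.49 in the other. Of 9 mast cell genes 1 fell. KIT, the stem cell factor receptor of mast cells and progenitors, read 8.48 and 8.55 in C and 7.77 and 7.44 in D6 and fell by 0.91 ± 0.14 (adjusted p = 0.0214).

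In the chemokine list 2 of 38 rose and 1 fell. CXCL10, an interferon-induced attractant of T cells, read 4.09 and 4.89 in C and 6.79 and 5.97 in D6 and rose by 1.89 ± 0.33 (adjusted p = 0.0301). The monocyte receptor CX3CR1 rose by 0.90 ± 0.18 (adjusted p = 0.0498). ACKR3, which scavenges CXCL12, read 8.54 and 8.61 in C and 7.49 and 7.61 in D6 and fell by 1.03 ± 0.15 (adjusted p = 0.0208). None of 31 inflammatory cytokine genes passed, with a median of 0.04. Without overlap, 11 were higher in D6 and 9 lower. The largest differences were in PTGS2 and IL18. PTGS2 read 5.81 and 6.21 in C and 4.46 and 5.53 in D6 (−1.02 ± 0.33, adjusted p = 0.17). IL18 read 4.85 and 4.71 in C and 6.01 and 5.56 in D6 (1.00 ± 0.35, adjusted p = 0.199). IL1B differed by −0.17 ± 0.23 and IL6 by 0.26 ± 0.31, and in both the groups overlapped. In the complement list 2 of 18 rose, both products of macrophages. The anaphylatoxin receptor C3AR1 rose by 1.40 ± 0.17 (adjusted p = 0.0119) and the C1q chain C1QC by 1.18 ± 0.17 (adjusted p = 0.0183). In the toll-like receptor list 2 of 16 rose, which were MYD88 and the lipopolysaccharide co-receptor CD14, by 1.34 ± 0.26 (adjusted p = 0.0419). Without C array 1 none of the genes of these 2 paragraphs passed.

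Genes of dividing cells were higher. Of 37 measured, 5 rose, 0 fell and 32 did not overlap, and the median was 0.59. The median difference from C was larger in D2, at 0.89, and was 0.40 in DT6. Between D6 and D2, and between D6 and DT6, 0 members differed past the threshold. MKI67, a protein of cycling nuclei, read 5.96 and 6.27 in C and 7.46 and 7.42 in D6, a rise of 1.33 ± 0.18 (adjusted p = 0.0154). TOP2A, the topoisomerase of mitotic chromosomes, rose by 1.60 ± 0.31 (adjusted p = 0.0424), and the ribonucleotide reductase subunit RRM2 by 1.37 ± 0.18 (adjusted p = 0.0154). ANLN and TPX2, of the cleavage furrow and the spindle, rose by 1.38 ± 0.25 and 1.18 ± 0.24. The C arrays differed from each other in these genes, with TOP2A at 4.54 and 5.52, and 0 of 37 passed without C array 1. In the glycolysis and hypoxia list 2 of 26 rose, the glycolytic enzymes PKM by 0.91 ± 0.14 (adjusted p = 0.0209) and ENO1 by 0.73 ± 0.12 (adjusted p = 0.0285). ENO1 has 2 probe sets, and their mean differed by only 0.31 ± 0.16, which did not pass (adjusted p = 0.39). VEGFA differed by −0.34 ± 0.12 (adjusted p = 0.196).

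None of the 19 osteoblast and mineralising matrix genes passed the threshold, although 12 had both D6 arrays above both C arrays. The list ran from −0.99 to 1.28 with a median of 0.28. The largest difference was in PHOSPHO1, the phosphatase that starts mineral formation in vesicles, which read 8.06 and 8.39 in C and 9.52 and 9.48 in D6 (1.28 ± 0.49, adjusted p = 0.236). IBSP, bone sialoprotein, read 10.02 and 11.55 in C and 12.19 and 11.82 in D6 (1.22 ± 0.41, adjusted p = 0.182). The C arrays were themselves far apart in IBSP, and its difference ran from 0.46 to 1.98 when 1 array was left out. RUNX2, the transcription factor that commits cells to bone, differed by −0.35 ± 0.15, and its downstream factor SP7 by 0.32 ± 0.26. ALPL, COL1A1, SPP1 and the late osteoblast product BGLAP gave differences of 0.44, 0.44, 0.74 and 0.26, none past the threshold. The fibrillar matrix list had 0 of 30 past the threshold with 18 higher without overlap and a median of 0.46. Its largest difference was in the collagen chaperone FKBP10, at 1.06 ± 0.22 (adjusted p = 0.0577).

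Osteocytes are osteoblasts buried in the mineral they made. Of 9 osteocyte genes 1 fell and 1 rose, with a median of −0.75. MEPE, a phosphoglycoprotein of osteocytes, read 11.17 and 10.85 in C and 9.67 and 9.13 in D6 and fell by 1.61 ± 0.21 (adjusted p = 0.0125), or 3.05-fold. PDPN, a membrane protein of young osteocytes and also of lymphatic vessels and epithelium, rose by 1.10 ± 0.17 (adjusted p = 0.0209). Its C values were 6.83 and 7.18, and D6 gave 8.22 and 7.99. SOST, the Wnt inhibitor of mature osteocytes, read 8.33 and 7.96 in C and 7.43 and 7.35 in D6, a difference of −0.75 ± 0.18 (adjusted p = 0.0744). DMP1 split the D6 arrays, at 6.82 and 11.84, while the C arrays read 9.63 and 11.62. The list's median lay at 0.02 without D6 array 1 and at −0.72 without D6 array 2, so its sign rested on the first of these arrays.

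The largest fall of all was in MATN3, matrilin 3, a matrix protein of cartilage that osteoblasts can also make. It read 10.12 and 10.08 in C and 5.46 and 7.04 in D6 and fell by 3.85 ± 0.46 (adjusted p = 0.0112), or 14.4-fold. It was also low in D2, at 4.96 and 5.40, and in DT6, at 4.50 and 5.38, and D6 differed from neither past the threshold. MATN3 was the 1 of 22 cartilage genes past the threshold. The cartilage collagen COL2A1 differed by −0.06 ± 0.26 and the transcription factor SOX9 by −0.11 ± 0.15, with overlapping groups. ACAN, the large proteoglycan aggrecan, read 6.29 and 6.93 in C and 8.15 and 8.62 in D6, a difference of 1.77 ± 0.40 that did not pass (adjusted p = 0.0648). The difference in MATN3 was −3.06 without D6 array 1 and −4.64 without D6 array 2.

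AMELX, amelogenin, the main protein of forming enamel, read 9.52 and 7.91 in C and 5.87 and 5.64 in D6 and fell by 2.96 ± 0.43 (adjusted p = 0.0202), or 7.77-fold. The difference was −2.15 without C array 1 and −3.76 without C array 2. The D6 arrays were close together while the C arrays differed by more than a unit. All arrays of D2 and DT6 lay between 5.57 and 6.07. It was the 1 of 7 enamel and dentin genes past the threshold, and ENAM, another enamel protein, differed by 0.07 ± 0.17. In the matricellular list THBS4, a thrombospondin of tendon and vessel wall, read 7.85 and 8.0 in C and 6.36 and 5.86 in D6 and fell by 1.82 ± 0.27 (adjusted p = 0.0207). POSTN, periostin of the periodontal ligament, read 13.38 and 13.21 in C and 11.96 and 12.90 in D6, a difference of −0.86 ± 0.32 (adjusted p = 0.229). None of 8 ligament and tendon genes passed.

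Of 15 genes on the nerve and Schwann cell list 1 fell, and 6 were lower without overlap, with a median of −0.19. CNTNAP5, a neurexin-family adhesion protein of neurons that is not on the list, read 8.26 and 7.90 in C and 5.73 and 6.09 in D6 and fell by 2.17 ± 0.18 (adjusted p = 0.00465), and it passed in 3 of the 4 fits with an array left out. The listed gene was CDH19, a cadherin of Schwann cells, which read 7.99 and 7.60 in C and 5.53 and 6.10 in D6 and fell by 1.98 ± 0.29 (adjusted p = 0.0202). Among the other largest falls, UGT8, the enzyme that makes the galactolipids of myelin, fell by 1.89 ± 0.37 (adjusted p = 0.0426). CDH10, a neuronal cadherin, fell by 1.82 ± 0.21 (adjusted p = 0.0112), and the calcium-dependent phosphodiesterase PDE1C fell by 1.83 ± 0.18 (adjusted p = 0.00899). The myosin MYO16 of neurons fell by 2.20 ± 0.36 (adjusted p = 0.024), LUZP2 by 1.93 ± 0.23 (adjusted p = 0.0112) and the lamin-binding protein MLIP by 1.87 ± 0.26 (adjusted p = 0.0181). In none of these 8 genes did D6 differ from D2 or DT6 past the threshold. These genes were named for the size of their fall and are no test of a theme. The myelin protein MBP, named after its values were seen, read 7.91 and 7.06 in C and 5.71 and 6.27 in D6 (−1.50 ± 0.32, adjusted p = 0.0578), while the glial factor SOX10 gave −0.32.

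Fat cell genes were lower. Of 25 measured, 3 fell and 0 rose, 19 had both D6 arrays below both C arrays, and the median was −0.72. The median difference from C was −0.41 in D2 and −0.13 in DT6. Between D6 and D2 0 members differed past the threshold, and 3 were lower in D6 than in DT6, against 1.32% of all genes. In D2, PLIN1 read 7.18 and 7.33, LEP 5.78 and 5.62, and ACVR1C 4.02 and 4.29. PLIN1, the coat protein of fat droplets, read 8.64 and 8.80 in C and 7.26 and 6.36 in D6 and fell by 1.91 ± 0.36 (adjusted p = 0.0385). DGAT2, which makes triglyceride, read 9.10 and 8.75 in C and 7.68 and 6.45 in D6 and fell by 1.87 ± 0.38 (adjusted p = 0.0492), with a difference of −2.48 without D6 array 1 and −1.25 without D6 array 2. The hormone LEP fell by 1.13 ± 0.22 (adjusted p = 0.0447). ADIPOQ, the adipocyte hormone adiponectin, named after its values were seen, read 10.51 and 10.91 in C, 9.44 in D6 array 1 and 6.74 in D6 array 2 (−2.62 ± 0.74, adjusted p = 0.116). D6 array 2 was the lower of the D6 arrays in all 4 of these genes. ACVR1C, an activin receptor of adipocytes, fell by 2.06 ± 0.35 (adjusted p = 0.027). DGAT2 was also lower in D6 than in DT6, at 8.79 and 9.57 in DT6 (−2.12 ± 0.38, adjusted p = 0.0278). The count of fallen genes was 2 without D6 array 1 and 0 without each of the other 3, and the median stayed between −0.84 and −0.58.

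FMO2, a flavin monooxygenase abundant in lung and fat, read 8.60 and 9.14 in C and 6.37 and 4.44 in D6 and fell by 3.47 ± 0.68 (adjusted p = 0.0442), or 11.1-fold. It passed in none of the fits with an array of C or D6 left out, where its difference was −4.43 without D6 array 1 and −2.51 without D6 array 2. It was the 1 of 27 genes of the xenobiotic enzyme list past the threshold. None of 23 sterol and fatty acid synthesis genes passed, and their median was −0.03.

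Genes of the circadian clock were lower in part. Of 20 clock and glucocorticoid-induced genes, 3 fell and 0 rose, with a median of −0.35. NR1D1 and NR1D2 encode the REV-ERB repressors of the clock. NR1D1 read 8.68 and 8.09 in C and 6.51 and 6.72 in D6 and fell by 1.77 ± 0.20 (adjusted p = 0.0112). NR1D2 read 8.95 and 8.82 in C and 7.58 and 7.75 in D6 and fell by 1.22 ± 0.20 (adjusted p = 0.0234), and the repressor CRY2 fell by 0.73 ± 0.14 (adjusted p = 0.0435). The opposing activators gave differences of 0.10 for ARNTL and −0.23 for CLOCK. The sources used here give no time of day for the harvests, so hour and group cannot be told apart. NR1D1 was as low in D2, at 6.74 and 6.82, and in DT6, at 6.79 and 6.98. FKBP5, a glucocorticoid-induced chaperone named after its values were seen, read 9.41 and 9.98 in C and 9.67 and 10.10 in D6 (0.19 ± 0.22, adjusted p = 0.744). It was higher in D6 than in D2 by 1.37 ± 0.22 (adjusted p = 0.0162) and than in DT6 by 1.52 ± 0.22 (adjusted p = 0.00994). For the clock list, 2 genes passed without D6 array 2, 1 without C array 2 and 0 in the other 2 fits.

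**Figure D4:**
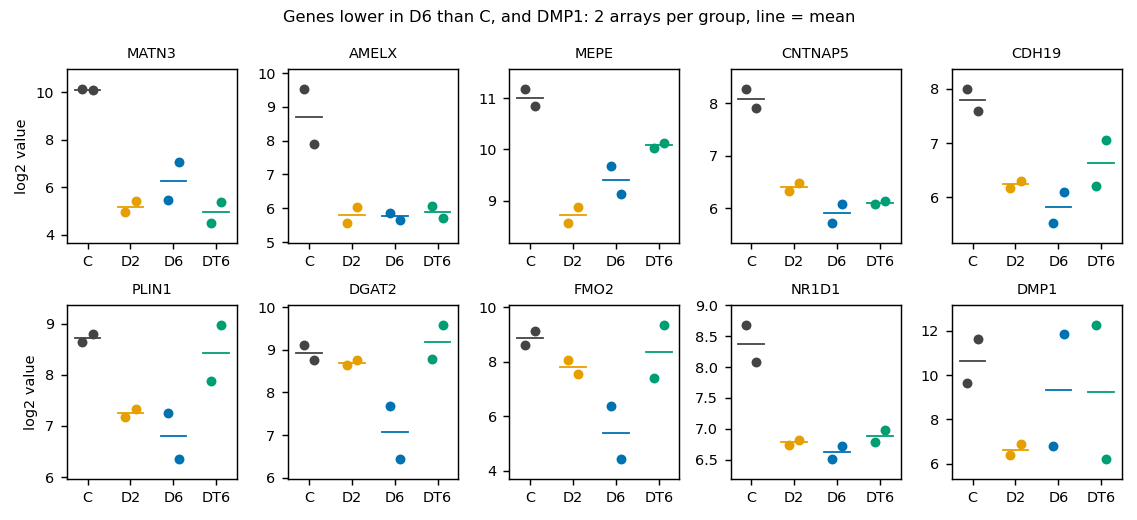
Log2 values of 9 genes that fell in D6 against C, and of DMP1, in each array of the 4 groups (points are arrays, lines are group means). MATN3, AMELX, CNTNAP5 and NR1D1 are low in all 3 defect groups, whereas PLIN1, DGAT2 and FMO2 are lowest in D6 array 2, and DMP1 ranges from 6.82 to 11.84 within D6.

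Growth factor and vessel genes gave few calls. In the Wnt list 1 of 45 rose, RSPO2, a secreted enhancer of Wnt signals, from 6.56 and 6.69 in C to 7.65 and 7.41 in D6 (0.90 ± 0.14, adjusted p = 0.023). The list as a whole leaned the other way, with a median of −0.11. Without overlap, 19 of its members were lower in D6 and 6 higher. In the BMP and TGF-beta list 1 of 38 fell, BMP3, a bone matrix protein that opposes bone formation, from 8.46 and 8.36 to 7.03 and 7.28 (−1.25 ± 0.25, adjusted p = 0.0493). BMP2, which induces bone, differed by −0.41 ± 0.16. In the FGF and IGF list IGF1 rose by 0.75 ± 0.13 (adjusted p = 0.0327) and FGF2 fell by 1.14 ± 0.19 (adjusted p = 0.0285), 2 of 29 genes. The median of that list was −0.25, with 13 members lower without overlap and 9 higher. Among 31 endothelial genes, PLVAP, which spans the pores of leaky vessels, read 9.32 and 9.29 in C and 10.06 and 10.01 in D6 and rose by 0.74 ± 0.13 (adjusted p = 0.0296). FLT1, a VEGF receptor, read 10.15 and 10.34 in C and 9.46 and 8.97 in D6 and fell by 1.03 ± 0.19 (adjusted p = 0.0344). The endothelial list as a whole had a median of 0.02. The semaphorin receptor PLXNC1 rose by 1.16 ± 0.16 (adjusted p = 0.0181), 1 of 35 guidance genes, and the integrin ITGB8, which frees TGF-beta, fell by 0.99 ± 0.18 (adjusted p = 0.033), 1 of 32 integrin and laminin genes.

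In 17 of the 49 lists none of the members passed. The oral epithelium list was the most uneven of these. Its median was 1.11 with both D6 arrays, −0.25 without D6 array 1 and 2.84 without D6 array 2, where 14 of its 32 genes passed. Immediate early genes (0 of 26, median −0.08), mechanosensitive channels and their partners (0 of 20, median −0.17), ribosomal proteins (0 of 36, median −0.07), respiratory chain subunits (0 of 25, median 0.20) and skeletal muscle genes (0 of 23, median 0.02) had no call in either direction. The mechanosensitive channel PIEZO2 had the largest difference of its list, at 9.15 and 9.37 in C and 6.85 and 8.39 in D6 (−1.64 ± 0.44, adjusted p = 0.105). The 1080 genes of all lists held 68 of the 157 rises and 18 of the 123 falls.

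**Figure D5:**
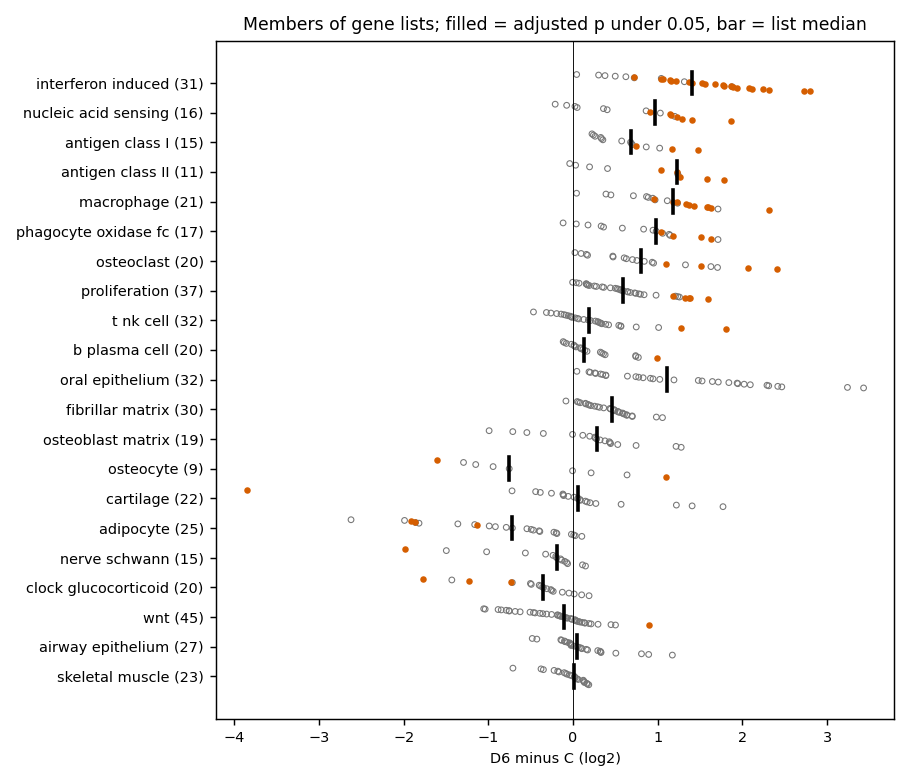
D6 minus C (log2) for every measured member of 21 gene lists, with the number measured in brackets. Filled points passed the adjusted threshold and bars mark list medians, from 1.41 for the interferon-induced list down to −0.75 for the osteocyte list, and the oral epithelium list spreads widely with no filled point.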

How the data were processed

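Total RNA of 8 dog alveolar bone samples was hybridised to Affymetrix whole-transcript arrays, per the labels' protocols. The table the authors deposited was treated as log2 values: 22708 probe sets per array, array medians 6.25 to 6.31, highest value 14.5. The labels and the table name no summarisation, normalization, log base or genome build, so folds rest on base 2 and coordinates are left out. Arrays have no depth, and their number, 2 per group, limits the precision. Probe sets with 1 symbol in the platform annotation were kept (16545, against 370 with several and 5793 not listed with a gene). For 516 genes with several probe sets the one with the highest mean was kept, which left 15947 genes. Of the probe sets kept, 15820 had an identifier in a RefSeq gene table (UU_Cfam_GSD_1.0), which changed 0 symbols.

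Tests used limma 3.58.1 in R 4.3.3 (lmFit on 4 group means over all 8 arrays, eBayes with a variance trend, two-sided, 4 residual degrees of freedom), with Benjamini-Hochberg adjustment over all genes at 0.05. Lists are described by counts and medians and were not tested. Genes named are the 15 largest rises and falls without overlap, the 10 largest moderated t, up to 5 called members per list (or 2 with the largest difference where none passed), a fixed set of bone and cytokine genes, and those past the threshold in most fits with an array left out. Outside the rule, and chosen after their values were seen, are ADIPOQ, ARNTL, CALCR, CGAS, CIITA, CLOCK, ENAM, FKBP5, IFNAR1, IFNB1, IFNG, IRF7, ISG15, ISG20, KRT5, MAVS, MBP, SOX10, TBK1, MMP20, RELN and SEMA3E. The rule gave 137 genes, of which 86 passed the threshold, and some of the 51 that did not pass are not shown. Members, lists and this rule were chosen with earlier results of these data known. A further 163 list entries matched no gene. Alternatives were single arrays left out, the replicate number as a block, other variance priors, array weights, normalizations, filters and probe set rules.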

Additional observations from a re-analysis of the deposited data

Results flagged for a closer look

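Among the 86 named genes past the threshold in D6 against C, 12 that rose were also higher in D6 than in D2. For them the difference from sound bone therefore differed between the D6 and D2 groups. These tests use the same fit and share the D6 arrays, by which the genes were chosen, so a gene picked for high D6 values is favoured here. Over all genes, 34 were higher in D6 than in D2 (0.213%) and 234 lower (1.47%). The D2 arrays also held airway transcripts, and the parts of week and of tissue content were not tested. The D6-minus-D2 differences on the log2 scale were 2.73 for LOC488947, 2.27 for MX1, 1.91 for LOC606863, 1.88 for USP18, 1.60 for RTP4, 1.55 for OAS1, 1.53 for OAS2, 1.40 for MX2 and 1.25 for DHX58. They were 1.08 for IFIH1, 0.81 for MYD88 and 0.78 for DLA88. Of the 12, 7 are members of the interferon-induced list, and the choice among named genes leaves out other genes that met both tests.

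Among the same 86 named genes, 17 differed between D6 and DT6 past the threshold. The 86 were chosen by D6 against C, which uses the same D6 arrays, so a gene picked for high D6 values is favoured here too. Over all genes, 33 were higher in D6 than in DT6 (0.207%) and 210 lower (1.32%). The DT6 arrays also held airway transcripts, and the part of that tissue was not tested. The D6-minus-DT6 differences were 3.62 for LOC488947, 2.90 for MX1, 2.35 for USP18, 2.16 for OAS1, 2.12 for LOC606863, 1.98 for RTP4, 1.97 for MX2, 1.95 for OAS2, 1.69 for DHX58 and 1.37 for DDX58. Smaller differences were 1.21 for IFIH1, 1.07 for the unnamed locus LOC478984, 0.88 for TAPBP, 0.85 for DLA88, 0.81 for IRF9 and 0.77 for MYD88. The fat synthesis enzyme DGAT2 was the 1 of these 17 that was lower in D6, at −2.12, whereas over all genes 210 were lower.

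Outside the gene comparisons, 52 of 5793 probe sets that the platform annotation does not list with a gene passed the threshold in D6 against C. Of these, 8 were higher in D6 and 44 lower.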

How the results depend on the processing

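Leaving out any 1 of the 8 arrays gave 0 to 683 genes past the threshold in D6 against C, 0 to 408 of them higher and 0 to 275 lower, against 280, 157 and 123. Without D6 array 1 and D2 array 2, the arrays with oral epithelium transcripts, the counts were 49, 24 and 25, and with array weights 476, 281 and 195. With the replicate number as a block they were 188, 104 and 84. The numbers do not pair the arrays: the labels tie no number to an animal, and the correlation of same-numbered deviations was 0.013 for C and D6. Exchanging the D2 or DT6 numbers, a choice made after seeing negative correlations, gave 254 genes for D6 against D2 and 220 for D6 against DT6. Those comparisons ran from 145 to 208 (268 with all arrays) and from 154 to 318 (243) with 1 of their own arrays left out, and D6 against DT6 gave 147 with its 4 arrays alone. The cause of these shifts was not tested. Quantile normalization (354), median centring (237), robust eBayes (321), no variance trend (215), a filter on dim genes (240), the mean of probe sets (279), all probe sets (215) and the 4 arrays alone (297) moved the total by under 1.5 times. The 86 named genes past the threshold kept their direction in all of these fits of D6 against C that tested them (61 of the 86 under the filter on dim genes), and 0 (without C array 1) to 86 of them stayed past it.

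Only 2 arrays per group and the absence of a background measure limit what low probe sets can show.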

Other observations

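A few genes divided the D6 arrays in the manner of DMP1, and were picked after their values were seen. MMP20, the enamel and dentin protease enamelysin, read 7.81 and 8.0 in C and 5.19 and 8.84 in D6 arrays 1 and 2. It read 4.74 and 4.86 in D2, 7.67 in DT6 array 1 and 4.91 in DT6 array 2. DMP1, a phosphoprotein of osteocytes and odontoblasts, read 6.40 and 6.89 in D2, 12.25 in DT6 array 1 and 6.23 in DT6 array 2. The axon guidance protein SEMA3E read 8.08 and 8.88 in C, 4.59 in D6 array 1 and 8.51 in D6 array 2, and 4.90 and 5.25 in D2. RELN, a secreted glycoprotein known from neurons and odontoblasts, read 8.40 and 8.93 in C, 6.24 and 8.22 in D6, and 6.27 and 6.50 in D2. In these 4 genes D6 array 1 sat with the D2 arrays and D6 array 2 with the C arrays, and none passed the threshold in D6 against C.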
